A study of Mus musculus with 16 samples.

Results

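The genes described here are the AP-1 and Egr immediate early genes of mouse pluripotent stem cells. They are Fos, Fosb, Fosl1 and Fosl2 (the Fos family), Jun and Junb (the Jun family) and Egr1, Egr2, Egr3 and Egr4 (the Egr family). Members were chosen by name, through the RefSeq accession that each array probe carries. All 10 were found, on 11 probes, among 15515 genes tested in all. Fosl2 has 2 probes, and the Fos probe is printed in 10 spots. Fosl1 and Egr3 passed the filter on dim probes through EpiSC arrays alone, so a count over the members that passed is given as a description.

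Messenger RNA was measured on 16 single-colour Agilent arrays, each holding RNA of one line of the 129/Ola strain, with 4 lines in each of 4 culture groups. 2iSB_LIF lines were grown in 2i, SB431542 and LIF, and 2i_LIF lines in 2i and LIF, and the labels give both as ground state. 2i stands for a MEK inhibitor combined with a GSK3 inhibitor, and SB431542 blocks the Activin, Nodal and TGF-beta type I receptors. EpiSC lines, labelled primed, were derived from the epiblast of post-implantation embryos and grown in Activin A and bFGF. LIF_serum lines, labelled naive, were derived from pre-implantation embryos and grown in serum with LIF. LIF was thus in the medium of every group except EpiSC, and MEK inhibitor only in that of 2i_LIF and 2iSB_LIF. EpiSC lines differ from the other lines in embryonic stage of origin and in medium at once, and these cannot be told apart. Cells were at passages 17 to 28. Nothing in the labels says how long before lysis the medium was last changed.

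Immediate early genes are transcribed within minutes of a stimulus, without new protein synthesis, from promoters that serum response factor, its ternary complex partners and CREB keep poised. ERK, the kinase that MEK activates, phosphorylates ternary complex factors, and bFGF and serum are among the stimuli that act through it. Fos and Jun proteins pair through leucine zippers to form AP-1, which binds its own DNA site in target genes such as matrix metalloproteinases, whereas Egr proteins are zinc finger factors that bind GC-rich sites and are restrained by the corepressors Nab1 and Nab2. In embryonic stem cells ERK signalling is known for driving exit from the naive state, which is why a MEK inhibitor is part of 2i. In other cell types the transcripts of these genes last only minutes to hours after a stimulus.

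Levels are log2 of the background-subtracted signal less the 75th percentile of that array, so that 0 is a probe as bright as the 75th percentile. They are levels of one probe and are not set against those of another. Across arrays 51.5% to 63.6% of probes were well above background by the scanner software's test, and the number of arrays limits the precision. The arrays came from 2 slides, each scanned on its own day. On slide 2 were every EpiSC array, 2iSB_LIF array 3, 2i_LIF array 4 and LIF_serum arrays 3 and 4, and the other arrays were on slide 1. The groups carried the markers of their labels. The mean level of 11 naive pluripotency markers was -0.95 to -0.74 on EpiSC arrays and 3.66 to 4.52 on LIF_serum arrays, and that of 12 primed epiblast markers was 3.19 to 4.11 on EpiSC arrays and 0.54 to 1.17 on LIF_serum arrays. P-values measure the spread between lines. In RNA from whole cultures, fewer cells that express a gene and less RNA per cell cannot be told apart.

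All 10 genes were highest in EpiSC. Against LIF_serum, all 10 were called higher in EpiSC, meaning that the measured difference was 2-fold or more and its adjusted p below 0.05. Egr3 was below background in LIF_serum, and its bound of at least 1.87-fold does not by itself reach 2-fold. Among all genes tested 33.6% were called and 18% were called higher. The median log2 difference of the members was 3.26, where that of all genes tested was 0.07. Every EpiSC array lay above every LIF_serum array for all 10, which held for 32.7% of all genes. By group mean both ground-state groups were lowest for every member other than Egr3, which was below background outside EpiSC. In 2i_LIF 6 of the 10 were called lower than in LIF_serum (called lower among all genes, 12.1%; called either way, 18.3%), with a median of -1.72 where all genes had 0.02. In 2iSB_LIF 7 were called lower than in LIF_serum (called lower among all genes, 13.3%; called either way, 20.1%), with a median of -3.09 where all genes had 0.02. The 3 comparisons share the LIF_serum arrays. Members called in 2i_LIF were Fos, Fosb, Fosl2, Jun, Egr2 and Egr4, and in 2iSB_LIF these and Egr1.

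**Figure D1:**
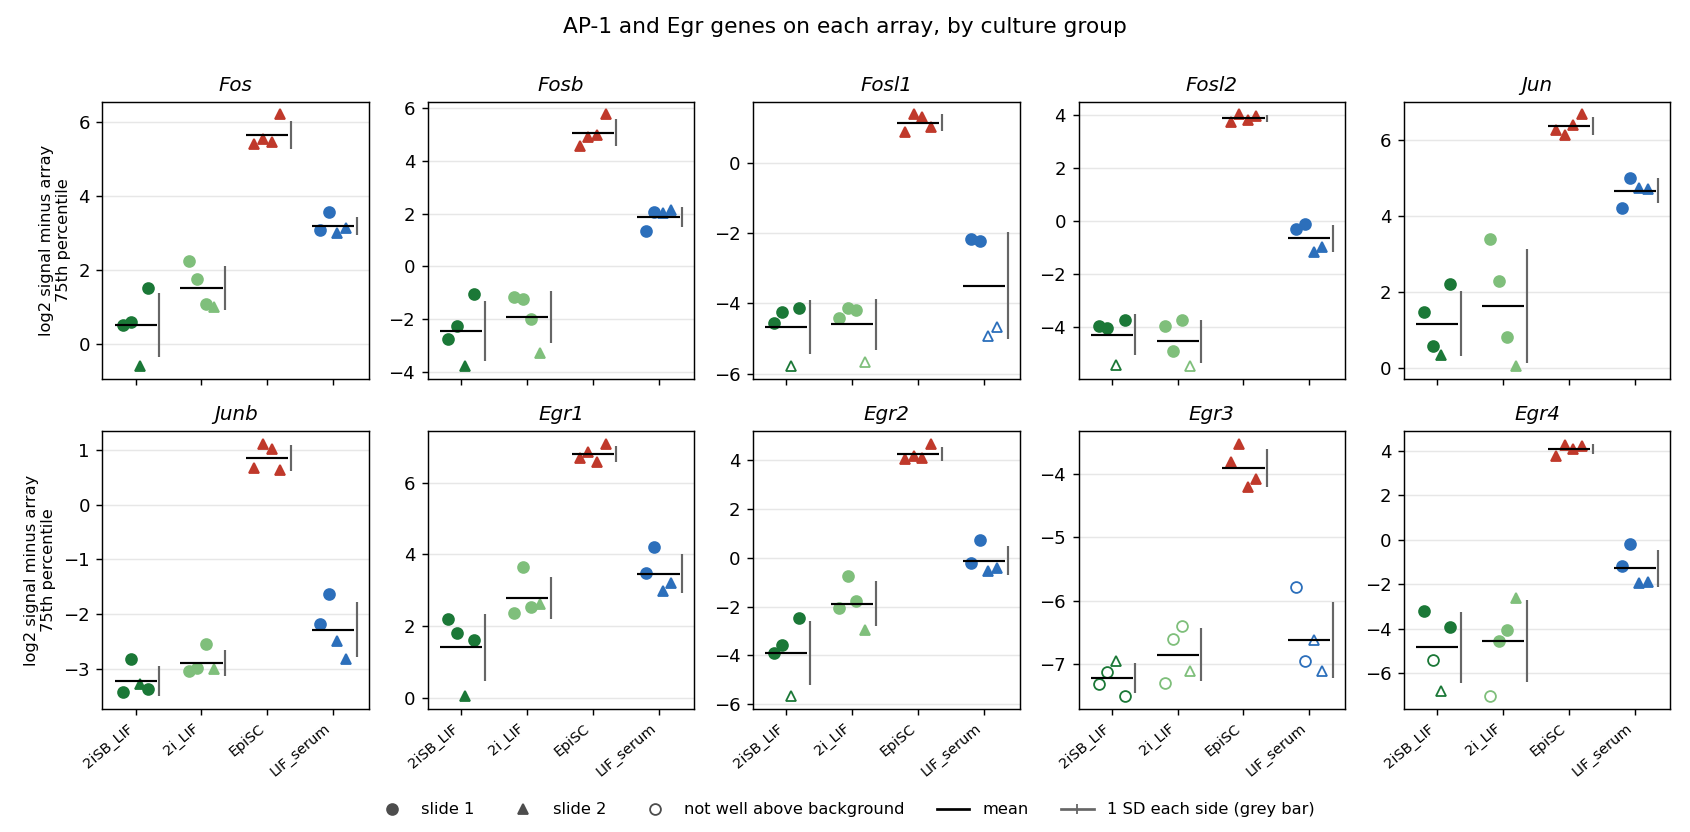
Level of each gene on each of the 16 arrays (log2 signal minus the array's 75th percentile, vertical axis with its own range in each panel), by culture group. Circles are arrays of slide 1 and triangles of slide 2, open symbols were not well above background, black lines are group means and grey bars reach 1 SD to each side. The 4 EpiSC arrays lie above all other arrays in every panel.

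Against EpiSC directly, all 10 were called lower in 2i_LIF, with a median log2 difference of -5.24 (called lower among all genes, 20.6%; called either way, 37.4%). The same count was reached in 2iSB_LIF, with a median of -5.61 (called lower among all genes, 20.1%; called either way, 36.3%). Egr3, below background in both ground-state groups, is given as a bound further on. Among the other 9 members the smallest log2 difference of 2i_LIF from EpiSC was -3.75, for Junb. The largest was -8.65, for Egr4, which is 402-fold lower as measured. In 2iSB_LIF against EpiSC Junb and Egr4 had -4.08 and -8.92. Egr4 was not well above background on every ground-state array, and its difference varied between them. For the single array of each ground-state group on slide 2, its difference from EpiSC was -6.70 in 2i_LIF and -10.9 in 2iSB_LIF. There the Fosl2 difference in 2i_LIF, at -9.39, was larger than that of Egr4. Fosl2 was not well above background on that array. On slide 2 alone, with 1 array of each ground-state group that is assumed to vary as the other groups do, 10 were called lower in both, where 39.7% of all genes were called in 2i_LIF and 38.7% in 2iSB_LIF.

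The sequences just upstream of 4 members called higher in EpiSC are shown with the motifs found in them, since these genes are known for promoters read by CREB and serum response factor. They are RefSeq promoter sequences on GRCm38.p6, written 5′ to 3′ in the direction of the gene, and end at the base before the annotated start, except for Egr2, which has 5 annotated starts. For Egr2 a 30-base window is shown that ends 47 bases before one of them. Capitals mark TGACG on either strand (read as CGTCA on the strand shown where it lies on the other), the core of a CREB site, TATAA, the core of a TATA box, and the CArG box, the site of serum response factor.
Fos (chr12:85473770-85473889, plus strand): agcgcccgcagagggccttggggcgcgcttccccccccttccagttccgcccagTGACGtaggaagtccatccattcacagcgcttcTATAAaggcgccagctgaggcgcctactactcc
Junb (chr8:84978749-84978868, minus strand): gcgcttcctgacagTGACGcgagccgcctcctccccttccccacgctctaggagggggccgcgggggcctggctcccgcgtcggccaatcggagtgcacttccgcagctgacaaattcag
Egr2 (chr10:67537793-67537822, plus strand): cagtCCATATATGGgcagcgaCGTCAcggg
Egr4 (chr6:85513590-85513709, minus strand): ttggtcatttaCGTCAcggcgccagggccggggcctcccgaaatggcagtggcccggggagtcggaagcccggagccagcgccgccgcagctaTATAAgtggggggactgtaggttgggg

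Motifs were searched on both strands in the 250 bases upstream of the start for the 7 members with a promoter sequence in the table used (Fos, Fosb, Fosl2, Jun, Junb, Egr2 and Egr4). A gene with several annotated starts was counted where the window of any of them held the motif. TGACG was in 5 of the 7 (Fos, Fosb, Junb, Egr2 and Egr4), and 19.8% of 27025 genes hold it in the same window. TATAA was in Fos, Egr2 and Egr4, and in 25.8% of genes. Both of these motifs were added to the search after the sequences had been seen. Within this window the CArG box was in Egr2 alone of the 7, and in 1.62% of genes. Bases further upstream were not searched, so a motif not found here may lie beyond the window. GGGCGG was in Fos, Fosb, Fosl2, Jun and Egr2, and in 35.4% of genes. The full CREB site TGACGTCA, which contains the shorter core, was in none of the 7 and in 1.77% of genes. TGAGTCA, the usual AP-1 site, was in none of the 7 and in 5.16% of genes. Only this exact string was searched for AP-1, so variants of the site may be present. A match is a string of letters and not a bound site.

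In the Fos family, Fos encodes the founding partner of Jun in AP-1. Its level was 0.51, 0.59, -0.61 and 1.51 on 2iSB_LIF arrays 1 to 4, 2.23, 1.75, 1.08 and 0.98 on 2i_LIF arrays, 5.40, 5.54, 5.45 and 6.20 on EpiSC arrays, and 3.06, 3.55, 3.00 and 3.12 on LIF_serum arrays. EpiSC, LIF_serum and the ground-state groups did not overlap, while 2iSB_LIF and 2i_LIF did. Fos was 5.51-fold higher in EpiSC than in LIF_serum (log2 difference 2.46, SE 0.38, adjusted p = 7.26e-05). It was 3.19-fold lower in 2i_LIF than in LIF_serum (-1.67, SE 0.38, adjusted p = 0.00405) and 6.42-fold lower in 2iSB_LIF than in LIF_serum (-2.68, SE 0.38, adjusted p = 0.000113).

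Fosb encodes a close relative of Fos, and its promoter, like that of Fos shown above, holds TGACG. Its level was -2.74, -2.25, -3.79 and -1.04 in 2iSB_LIF, -1.15, -1.25, -1.98 and -3.30 in 2i_LIF, 4.57, 4.93, 5.01 and 5.78 in EpiSC, and 1.33, 2.08, 2.03 and 2.13 in LIF_serum. The groups were ordered as for Fos, with a wider gap between LIF_serum and the ground state. Fosb was 9.05-fold higher in EpiSC than in LIF_serum (3.18, SE 0.53, adjusted p = 0.000165), 14.0-fold lower in 2i_LIF (-3.81, SE 0.53, adjusted p = 0.000127) and 20.4-fold lower in 2iSB_LIF (-4.35, SE 0.53, adjusted p = 3.88e-05). That was the largest fall of the members between 2iSB_LIF and LIF_serum.

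Fosl1 encodes Fra-1, a Fos protein without a strong activation domain that in many cells follows AP-1 activity with a delay. Levels were -4.55, -4.23, -5.80 and -4.14 in 2iSB_LIF, -4.41, -4.13, -4.18 and -5.66 in 2i_LIF, 0.89, 1.40, 1.32 and 1.02 in EpiSC, and -2.15, -2.21, -4.93 and -4.68 in LIF_serum. The LIF_serum arrays split into 2 high ones (1 and 2) and 2 that were not well above background (3 and 4). It was 25.1-fold higher in EpiSC than in LIF_serum (4.65, SE 0.60, adjusted p = 1.56e-05), and the call held against either pair of LIF_serum arrays. With normexp, another background correction, this difference was 3.38. Neither 2i_LIF (-1.10, 95% interval -2.39 to 0.19, adjusted p = 0.185) nor 2iSB_LIF (-1.19, -2.47 to 0.10, adjusted p = 0.146) was called against LIF_serum.

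Fosl2 encodes Fra-2, another Fos protein of this kind. The brighter of its 2 probes, which stands for the gene, gave -3.97, -4.05, -5.46 and -3.73 in 2iSB_LIF, -3.99, -4.92, -3.76 and -5.50 in 2i_LIF, 3.73, 4.04, 3.82 and 3.95 in EpiSC, and -0.32, -0.11, -1.17 and -1.0 in LIF_serum. Its LIF_serum arrays lay clear of all others. By this probe Fosl2 was 23.2-fold higher in EpiSC than in LIF_serum (4.54, SE 0.41, adjusted p = 4.39e-07), 14.8-fold lower in 2i_LIF (-3.89, adjusted p = 1.25e-05) and 12.5-fold lower in 2iSB_LIF (-3.65, adjusted p = 1.84e-05). The second probe was dim and disagreed. It gave -3.81, -3.38, -3.54 and -3.96 in EpiSC and -3.37, -3.42, -4.28 and -5.11 in LIF_serum, a log2 difference of 0.37 (SE 0.64, adjusted p = 0.64), and -1.35 in 2i_LIF and -0.77 in 2iSB_LIF against LIF_serum, neither of them called. Which transcripts each probe reads was not tested, so the changes of Fosl2 are those of its brighter probe. With normexp the differences from LIF_serum by the brighter probe were both -2.20 in the ground state.

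In the Jun family, Jun encodes the AP-1 subunit that can also pair with itself. Its level was 1.49, 0.59, 0.35 and 2.22 in 2iSB_LIF, 3.40, 2.30, 0.81 and 0.04 in 2i_LIF, 6.27, 6.13, 6.39 and 6.68 in EpiSC, and 4.21, 5.0, 4.75 and 4.70 in LIF_serum. EpiSC and LIF_serum were each tight, while the 2i_LIF arrays spread over 3.36 log2 units. Leaving aside Egr3, which is given as a bound, Jun had the smallest rise of the members in EpiSC against LIF_serum. It was 3.26-fold (1.70, SE 0.58, adjusted p = 0.0219). This call was lost without LIF_serum array 1 (1.55, adjusted p = 0.056) and without EpiSC array 4 (1.60, adjusted p = 0.053), although no array of the 2 groups overlapped. Its fall was larger, 8.15-fold in 2i_LIF (-3.03, SE 0.58, adjusted p = 0.0013) and 11.4-fold in 2iSB_LIF (-3.51, SE 0.58, adjusted p = 0.000388), each against LIF_serum. Without 2i_LIF array 1, the highest of that group, the 2i_LIF difference was -3.61 from LIF_serum and -5.32 from EpiSC.

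Junb encodes a Jun protein that often opposes Jun at the same sites. Levels were -3.42, -2.82, -3.27 and -3.37 in 2iSB_LIF, -3.04, -2.99, -2.54 and -3.0 in 2i_LIF, 0.66, 1.11, 1.01 and 0.63 in EpiSC, and -2.18, -1.64, -2.48 and -2.83 in LIF_serum. LIF_serum lay close to the ground state here, and its lowest array was within the range of both ground-state groups. The rise in EpiSC against LIF_serum was 8.79-fold (3.14, SE 0.23, adjusted p = 5.74e-08). Against LIF_serum, the difference in 2i_LIF was -0.61 (95% interval -1.11 to -0.11, adjusted p = 0.0598). In 2iSB_LIF it was -0.94 (-1.44 to -0.44, adjusted p = 0.00669), a 1.92-fold difference that passed on p and not on size. It reached the 2-fold limit without LIF_serum array 3 (-1.01), LIF_serum array 4 (-1.12) or 2iSB_LIF array 2 (-1.07). Its promoter, shown above, holds TGACG.

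**Figure D2:**
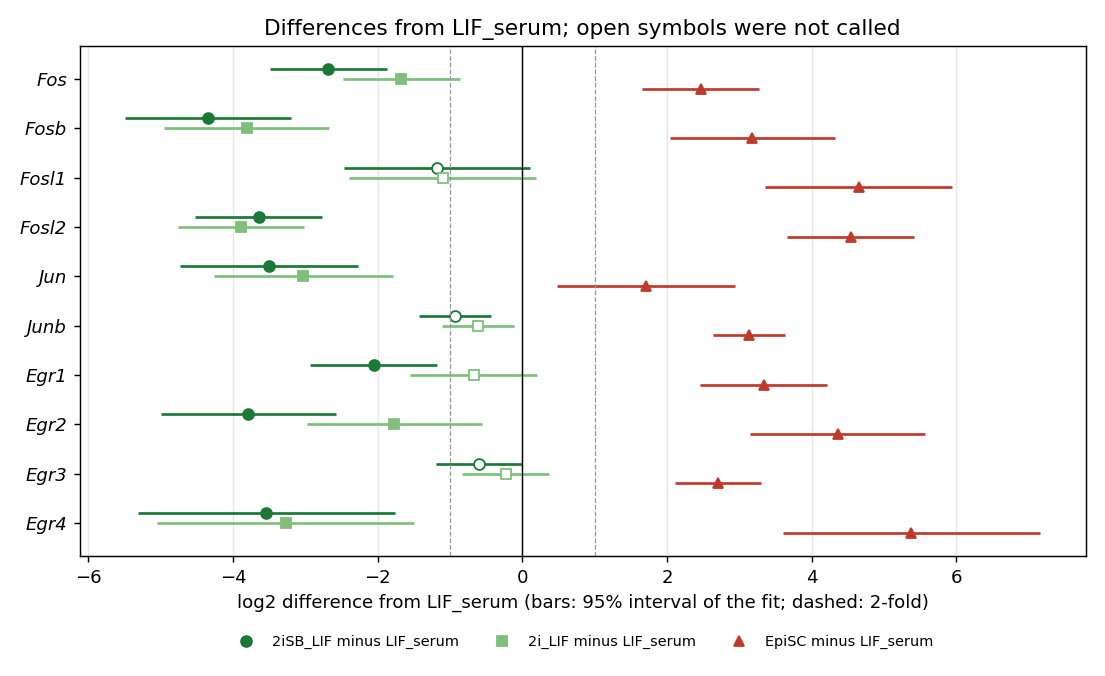
Log2 difference of each gene from LIF_serum in 2iSB_LIF (circles), 2i_LIF (squares) and EpiSC (triangles), with bars for the 95% interval of the fit. Filled symbols were called, open symbols were not, and dashed lines mark 2-fold. All EpiSC symbols are filled and lie right of 1, and all ground-state symbols lie left of 0, with those of Fosl1, Junb and Egr3 open in both ground-state groups. Egr3 was below background in 3 groups. Its symbols show the differences as measured and not the bounds given in the text, so their sizes cannot be relied on.

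In the Egr family, Egr1 encodes the Egr factor that is the usual marker of ERK activity. Its level was 2.20, 1.79, 0.05 and 1.61 in 2iSB_LIF, 2.37, 3.66, 2.54 and 2.61 in 2i_LIF, 6.70, 6.86, 6.57 and 7.08 in EpiSC, and 3.48, 4.21, 2.97 and 3.21 in LIF_serum. All 16 arrays, also those of cells grown with the MEK inhibitor, had it well above background. Egr1 was 10.1-fold higher in EpiSC than in LIF_serum (3.34, SE 0.41, adjusted p = 9.39e-06). In 2iSB_LIF it was 4.15-fold lower than in LIF_serum (-2.05, SE 0.41, adjusted p = 0.00164). In 2i_LIF the groups overlapped and it was not called (-0.67, 95% interval -1.55 to 0.21, adjusted p = 0.238).

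Egr2 encodes the Egr factor known from hindbrain and Schwann cells, and holds the CArG box shown above. Its level was -3.89, -3.58, -5.66 and -2.47 in 2iSB_LIF, -2.08, -0.73, -1.77 and -2.97 in 2i_LIF, 4.04, 4.19, 4.08 and 4.67 in EpiSC, and -0.20, 0.73, -0.56 and -0.42 in LIF_serum. The highest 2i_LIF array lay just under the lowest LIF_serum array, and 2iSB_LIF array 3 was not well above background. Egr2 was 20.5-fold higher in EpiSC than in LIF_serum (4.36, SE 0.56, adjusted p = 1.55e-05). It was 13.8-fold lower in 2iSB_LIF than in LIF_serum (-3.79, SE 0.56, adjusted p = 0.000183), or -3.20 without 2iSB_LIF array 3, which was also the array that moved its difference from EpiSC to -7.56 when left out. With normexp the 2iSB_LIF difference from LIF_serum was -2.52. The 3.42-fold fall in 2i_LIF (-1.77, SE 0.56, adjusted p = 0.0281) was less secure. It was no longer called without LIF_serum array 2 (-1.49, adjusted p = 0.080), 2i_LIF array 1 (-1.71, adjusted p = 0.058) or 2i_LIF array 4 (-1.41, adjusted p = 0.081).

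Egr3 encodes a relative of Egr1 that is induced by many of the same stimuli. It was well above background on EpiSC arrays alone, at -3.83, -3.53, -4.21 and -4.08, and on none of the 12 other arrays. Against the background floor of those arrays, Egr3 was at least 1.87-fold higher in EpiSC than in LIF_serum. It was at least 2.32-fold lower in 2i_LIF and at least 2.41-fold lower in 2iSB_LIF than in EpiSC. The bounds themselves were not tested. The calls come from the limma fit of the measured differences (adjusted p = 1.71e-06, 4.42e-07 and 1.19e-07, in the same order). These 3 calls depended on the background correction. With normexp they fell under 2-fold, to log2 differences of 0.46, -0.60 and -0.81. No difference can be given between LIF_serum and the ground state, where both sides were below background.

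Egr4 encodes an Egr factor that lacks the site Nab proteins bind. Its level was -3.19, -5.38, -6.79 and -3.94 in 2iSB_LIF, -7.02, -4.57, -4.05 and -2.61 in 2i_LIF, 3.76, 4.27, 4.11 and 4.22 in EpiSC, and -1.16, -0.17, -1.92 and -1.89 in LIF_serum. In 2iSB_LIF 2 arrays and in 2i_LIF 3 arrays were well above background. It had the largest rise of the members in EpiSC against LIF_serum, 41.5-fold (5.38, SE 0.83, adjusted p = 7.86e-05), and also the widest spread, 4.41 log2 units over the 2i_LIF arrays. It was 9.68-fold lower in 2i_LIF (-3.28, SE 0.83, adjusted p = 0.00836) and 11.6-fold lower in 2iSB_LIF (-3.54, SE 0.83, adjusted p = 0.00476) than in LIF_serum. Single arrays moved these sizes. The 2i_LIF difference from LIF_serum was -2.46 without 2i_LIF array 1 and -3.93 without 2i_LIF array 4, and the 2iSB_LIF difference was -2.88 without 2iSB_LIF array 3. The same arrays left out in the same order gave -7.83, -9.30 and -8.26 against EpiSC. With normexp Egr4 differed from LIF_serum by -1.72 in 2i_LIF and -1.89 in 2iSB_LIF, both still called. The 2iSB_LIF call was lost with passage as a covariate (adjusted p = 0.068).

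The order of the group means was EpiSC, then LIF_serum, then the ground-state groups for the 9 members other than Egr3, which was below background outside EpiSC. The step between EpiSC and LIF_serum was called for all of them. The next step down, between LIF_serum and the nearer ground-state group, was called for Fos, Fosb, Fosl2, Jun, Egr2 and Egr4 and was not called for Fosl1, Junb and Egr1. The last step, between the ground-state groups, was called for none.

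Addition of SB431542 to 2i was not accompanied by a called change of any member. Between 2iSB_LIF and 2i_LIF, 0 of the 10 were called by limma, where 0.0838% of all genes were, and 3 had an unadjusted p under 0.05. Egr2 had a log2 difference of -2.02 (95% interval -3.22 to -0.81, adjusted p = 0.334), Egr1 of -1.38 (-2.26 to -0.50, adjusted p = 0.421) and Fos of -1.01 (-1.82 to -0.20, adjusted p = 0.65). Egr1 was the only member whose groups did not overlap, every 2iSB_LIF array lying below every 2i_LIF array, as for 1.22% of all genes. The other differences lay between -0.54 and 0.24. The intervals are wide and do not show that the groups were alike, for instance -2.04 to 1.51 for Egr4 and -1.71 to 0.75 for Jun. On slide 1 alone, with 3 arrays a group, the differences of Egr2, Egr1 and Fos were -1.79, -0.99 and -0.82. On slide 2, with 1 array a group, they were -2.69, -2.56 and -1.59, and 4 members were called lower (these and Egr4, at -4.18), on the assumption that the lone arrays vary as the other groups do. In that fit 14.4% of all genes were called.

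Within each group, 1 array was the lowest for 6 or more members. 2iSB_LIF array 3, the only one of its group on slide 2, was the lowest of its group for 8 of the 10 genes, with a mean deviation of -1.04 from the group mean. 2i_LIF array 4, likewise the only one of its group on slide 2, was lowest for 6 genes, with a mean deviation of -0.52, and was the highest for Egr4. EpiSC array 1 and LIF_serum array 3 were each lowest for 6 genes too, with mean deviations of -0.20 and -0.37. Without 2iSB_LIF array 3 and 2i_LIF array 4 the members called were 6 in 2i_LIF and 7 in 2iSB_LIF against LIF_serum, 10 in each against EpiSC and 0 between the ground-state groups. These counts are the same as with all arrays. Of the 15515 genes tested, 2883, 2779, 6028, 5888 and 8 were called either way, in the same order. With slide as a term in the fit, 7 members were called lower in 2i_LIF and 9 in 2iSB_LIF against LIF_serum, Fosl1 being added in both (-1.58 and -1.67) and Junb in 2iSB_LIF (-1.03). In that fit 2902 and 3182 of the 15515 genes tested were called, either way. Within slide 1 the 2i_LIF differences from LIF_serum for Fos, Fosb, Fosl2, Jun, Egr2 and Egr4 came to -1.62, -3.16, -4.01, -2.44, -1.79 and -4.55. Within slide 2, with a single 2i_LIF array, they came to -2.08, -5.38, -4.41, -4.68, -2.48 and -0.70. The 2iSB_LIF differences for the same genes came to -2.44, -3.72, -3.70, -3.18, -3.58 and -3.51 on the first slide, and to -3.67, -5.87, -4.37, -4.38, -5.17 and -4.88 on the second. Several calls were lost on single slides. In 2i_LIF these were Jun (adjusted p = 0.080) and Egr2 (adjusted p = 0.077) on slide 1 and Egr4 on slide 2, where it was under 2-fold. In 2iSB_LIF Egr4 was lost on slide 1 (adjusted p = 0.052). For Egr1 in 2iSB_LIF the slide 1 value was -1.98 and the slide 2 value -3.04. EpiSC can be compared with LIF_serum on slide 2 alone, where all 10 members were called higher, by 1.64 (Jun) to 6.0 (Egr4) as measured. On that slide 36.8% of all genes were called either way.

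**Figure D3:**
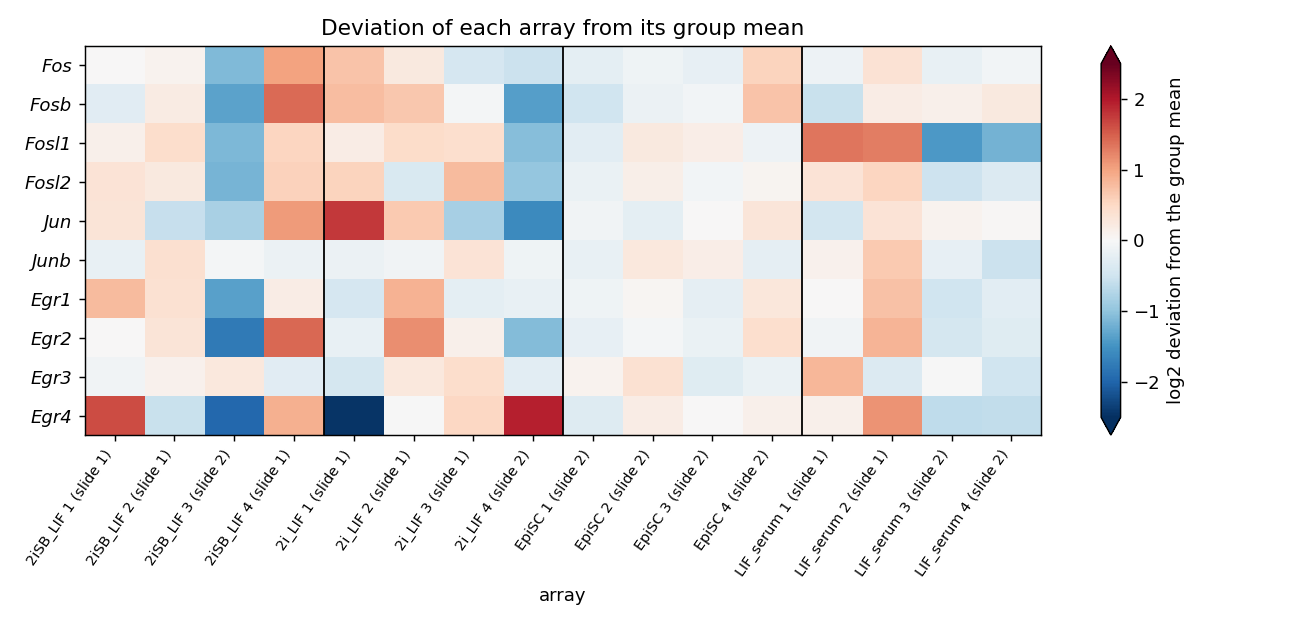
Deviation of each array from the mean of its own group for each gene (colour, log2 units; red above and blue below the mean), with vertical lines between groups. 2iSB_LIF array 3 is blue for most genes, EpiSC columns are pale, and in LIF_serum Fosl1 is red on arrays 1 and 2 and blue on arrays 3 and 4.

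The LIF_serum arrays carry 2 codes in their descriptions, LS on arrays 1 and 2 and LSFF on arrays 3 and 4, and no label explains them. The codes also coincide with the slides, so code and slide cannot be told apart within LIF_serum. The difference between the codes was not tested. Arrays coded LSFF were lower than those coded LS for 8 of the members. The log2 difference, LSFF minus LS, was -2.62 for Fosl1, -1.24 for Egr4, -0.87 for Fosl2, -0.75 for Junb, Egr1 and Egr2, -0.51 for Egr3 (below background in both) and -0.24 for Fos, against 0.12 for Jun and 0.37 for Fosb. Against the LSFF arrays alone, Fosl1 was not called in the ground state (0.21 in 2i_LIF and 0.13 in 2iSB_LIF), while against the LS arrays alone it was called lower in both (-2.41 and -2.50). The rise of Fosl1 in EpiSC was called against either, at 5.96 over LSFF and 3.34 over LS. Against the LSFF arrays 4 members were called lower in 2i_LIF (Egr2, at -1.40, and Egr4, at -2.65, being lost), and 7 in 2iSB_LIF. Of the 15515 genes tested, 3576 and 3683 were called either way in these 2 comparisons.

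Markers of fibroblasts, cells that respond strongly to serum and are used as feeders for stem cells, moved with the members between culture groups. The mean level of 20 fibroblast markers was -4.18 to -4.0 on 2iSB_LIF arrays, -4.47 to -3.72 on 2i_LIF arrays, 2.34 to 2.99 on EpiSC arrays, and on LIF_serum arrays -1.70 and -1.58 for those coded LSFF and 1.05 and 0.82 for those coded LS. In EpiSC 17 of the 20 were called higher than in LIF_serum (median 2.80), and 17 were called lower in 2iSB_LIF (median -3.57) and 16 in 2i_LIF (median -3.12). All 20 were well above background on every EpiSC array, and 15 on every LIF_serum array. On 2iSB_LIF arrays 5 were, and Dcn, Lum, Postn and Prrx1 were so on none. On 2i_LIF arrays 8 were, and Col5a2, Dcn, Lum, Postn and Prrx1 were so on none. Within LIF_serum the markers were lower on LSFF than on LS arrays, as were the members other than Jun (0.12) and Fosb (0.37). The fall of Fos there was small (-0.24), and Egr3 was below background in both. The part of fibroblasts in the levels of the members was not tested. The mean level of 7 heat shock genes, which stress induces, overlapped between all groups. It was 5.08 to 5.74 in 2iSB_LIF, 5.11 to 5.53 in 2i_LIF, 5.12 to 5.25 in EpiSC and 5.23 to 5.39 in LIF_serum. In EpiSC 1 of the 7 was called higher and 2 lower than in LIF_serum, and in each ground-state group 1 was called lower, Hspa1a.

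The counts of the fibroblast markers and heat shock genes above, and of the lists that follow, can be read against the shares of all genes. In EpiSC 18% of all genes were called higher and 15.6% lower than in LIF_serum. Also against LIF_serum, 6.25% were called higher and 12.1% lower in 2i_LIF, and 6.81% higher and 13.3% lower in 2iSB_LIF. Of 23 other immediate early genes tested, 15 were called higher in EpiSC than in LIF_serum and none lower (median 1.36). The largest rises were those of Npas4 (6.32), a neuronal activity-dependent factor, Arc (3.57), a synaptic capsid-like protein, and Nr4a2 (3.28), an orphan nuclear receptor. In 2i_LIF 6 were called lower than in LIF_serum (median -0.71), with Ccn2 (-2.13) and Ccn1 (-2.03), matricellular proteins also driven by YAP, the furthest down. In 2iSB_LIF 9 were called lower (median -0.88), with Ccn2 (-2.97), Zfp36 (-2.19), which promotes decay of AU-rich transcripts, and Ccn1 (-2.10) furthest down. None was called higher in either. Klf6, a zinc finger factor, was called in all 3 comparisons, at 2.31 in EpiSC, -1.62 in 2i_LIF and -1.57 in 2iSB_LIF. Nr4a1, an orphan nuclear receptor, was called in EpiSC alone of the 3, at 2.51, with -0.54 in 2i_LIF and -0.37 in 2iSB_LIF.

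Of 13 other AP-1 dimer partners, 6 were called higher and 1 lower in EpiSC than in LIF_serum (median 1.19). Atf3, a stress-induced repressor that pairs with Jun, was called in all 3 comparisons in the direction of the members, at 3.12 in EpiSC, -2.25 in 2i_LIF and -2.66 in 2iSB_LIF. Jund, the Jun protein that is usually constitutive, rose by 1.30 in EpiSC and was not called in the ground state (-0.42 in 2i_LIF and -0.68 in 2iSB_LIF). Maf, a large Maf protein, was at least 3.42-fold lower in 2i_LIF and at least 3.55-fold lower in 2iSB_LIF than in LIF_serum. Some partners ran the other way. Jdp2, a repressive partner of Jun, was called higher in all 3 groups than in LIF_serum, at 1.94 in EpiSC, 1.48 in 2i_LIF and 1.96 in 2iSB_LIF. Batf2 was the partner called lower in EpiSC, at -2.95.

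**Figure D4:**
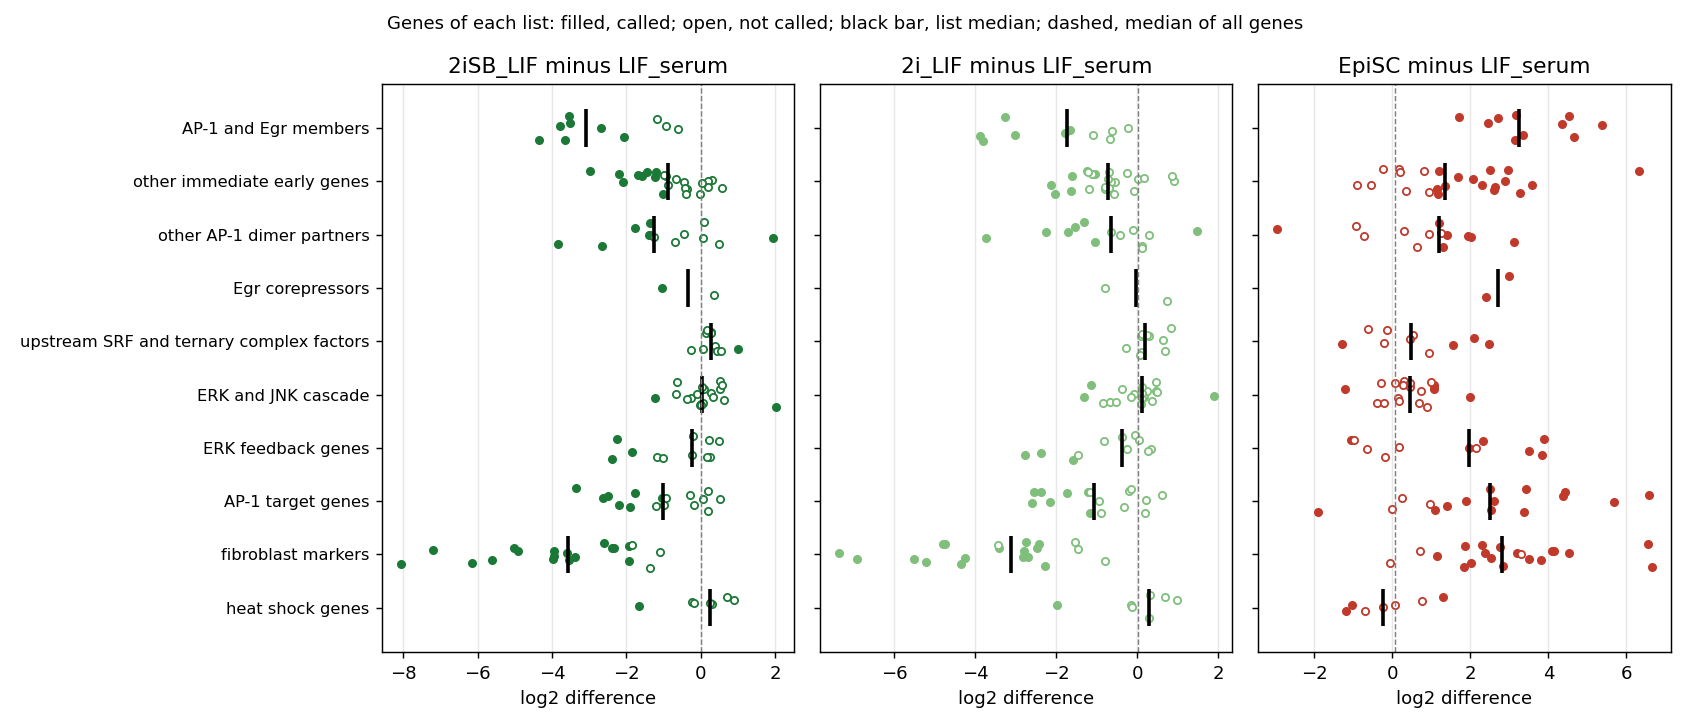
Log2 difference from LIF_serum of the genes of each list in 2iSB_LIF, 2i_LIF and EpiSC; filled symbols were called, open symbols were not, black bars are list medians and the dashed line is the median of all genes tested. The medians of the members and the fibroblast markers stand furthest from the dashed line of the lists drawn, in all 3 panels, while the bars of the ERK and JNK cascade, the serum response factor list and the heat shock genes lie near it.

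Of 10 genes for serum response factor, its partners and upstream kinases, 3 were called higher in EpiSC than in LIF_serum. They are Srf (2.08), Elk3 (2.49), a ternary complex factor, and Creb1 (1.57). Rps6ka1, a kinase downstream of ERK, was called lower at -1.28, but not with arrays centred on their medians. In 2i_LIF none of the 10 was called, and in 2iSB_LIF Mrtfb, a coactivator of serum response factor, was the one called (1.01). Of 19 genes of the ERK and JNK cascade, 4 were called higher in EpiSC, a share near that of all genes, among them Sos1 (2.00), Ptpn11 (1.07) and Shc1 (1.06), and Ksr1, a scaffold, was called lower (-1.20), again not with median centring. Mapk3, which encodes ERK1, was called lower in 2i_LIF (-1.14) and 2iSB_LIF (-1.24) and Sos1, a Ras exchange factor, was called higher in both (1.89 and 2.01). Protein phosphorylation, through which the inhibitors act, was not measured.

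Genes that ERK signalling induces, among them genes that restrain it, were split. In EpiSC against LIF_serum 5 of 11 were called higher and 1 lower (median 1.97). Dusp5 (3.90) and Dusp6 (3.50), phosphatases of ERK, and Phlda1 (3.83) rose most, and Etv5 was called lower (-1.04), but not with median centring. In both ground-state groups 3 of 11 were called lower than in LIF_serum and none higher. These were Dusp4 (-2.77 in 2i_LIF and -2.40 in 2iSB_LIF), Phlda1 (-2.38 and -2.26) and Spry1 (-1.58 and -1.84). Dusp6 was not called in either (-0.37 and -1.02). Of the corepressors of Egr proteins, Nab1 (2.41) and Nab2 (3.00) were both called higher in EpiSC. Neither was called in 2i_LIF (-0.79 and 0.74), and in 2iSB_LIF Nab1 was called lower (-1.05) while Nab2 was not called (0.35).

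Of 16 genes known as targets of AP-1, 12 were called higher in EpiSC than in LIF_serum and 1 lower (median 2.51). The rises included Mmp3 (6.59), a matrix metalloproteinase, and Plau, the urokinase protease, at least 8.54-fold higher. Mmp10, another metalloproteinase, was at least 26.5-fold higher. Mt2, a metallothionein, was the one called lower (-1.89). In each ground-state group 7 of 16 were called lower and none higher, with Mmp3 (-2.60 in 2i_LIF and -2.61 in 2iSB_LIF), Plaur (-2.56 and -3.35), the urokinase receptor, and Mmp9 (-2.38 and -2.49) among them. With normexp 4 were called lower in 2i_LIF and 2 in 2iSB_LIF. Fibroblasts express many of these genes too, and the fibroblast markers above moved alike.

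Across the 16 arrays the members were correlated with each other, with Pearson's r of 0.74 to 0.98 over their 45 pairs (median 0.93), which mostly repeats the differences between groups. After group means were subtracted, r was -0.42 to 0.90 (median 0.33), as a description over arrays that share slides. The pair most alike within groups was Fos and Fosb (0.90), and the pair with the lowest value, Fos and Egr3 (-0.42), includes a gene below background on 12 arrays. Fos was also correlated with Egr2 within groups (0.81), and Egr1 with Egr2 (0.79).

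Among 14556 other genes tested that have an established symbol, those whose levels ran most like a member's over the 16 arrays were listed by Pearson's r. Atf3 was nearest to Fos (0.98), Bach2 to Fosb (0.99), Lynx1 to Fosl1 (0.98) and Zfp423 to Fosl2 (0.99). Npas4 and Klf6 were also among the 3 nearest, to Fosl1 and to Fosl2. Ptchd1 was nearest to Jun (0.98) and Shisa6 to Junb (0.99). Chst15 was nearest to Egr1 (0.97), Tcim to Egr2 (0.98), Rgs8 to Egr3 (0.98) and P3h3 to Egr4 (0.98). Sprr1a, an epidermal cornified envelope gene, was second for both Fosl1 and Junb. With 4 groups and 4 arrays in each, an r of this size is reached by genes that share the order of the group means.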

How the data were processed

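Scanner files hold intensity values of 62976 spots, 3671 of them controls, from Agilent Feature Extraction 10.7.1.1, per the file headers; the processed signal is background-subtracted and not scaled between arrays. The authors also deposited log2 values for 42316 probes, made with limma and Feature Extraction per the submitters' processing notes, and the sources used here do not say how they were normalized. Groups, numbers and passages came from the labels.

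Outlier spots (100 to 321 an array) were set to missing, and repeat spots of a probe averaged. Probes, 27656 of 55681, were named through RefSeq accessions on GRCm38.p6. Values are log2 of the processed signal minus the 75th percentile of that array. Testing required a probe to be well above background on each of the 4 arrays in some group. Where a gene had several such probes, the brightest on average was used. limma 3.58.1 under R 4.3.3 fitted one model of 4 group means (with jsonlite 2.0.0 and the package data.table, version 1.17.8; Python 3.11.15, pandas 2.3.3 and matplotlib 3.10.9 for promoters and plots), and p-values were adjusted by Benjamini-Hochberg over 15515 genes. A gene below background on all arrays of one group is given as a bound against the lowest signal well above background. The fit was tested on simulated data. List members were named if called at 4-fold or more or among the 3 largest differences of their list; others were chosen after their values were seen, for their known role.

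Alternatives were median centring, quantile normalization, normexp (offset 50, on the median spot signal, as the files used here give no mean), other filters and probes, slide, passage and replicate terms, single slides, LIF_serum codes, the deposited log2 values and leaving out each array. Same-numbered arrays of different groups did not deviate together (r -0.60 to 0.40, median -0.04), so no pairing was assumed. The members and lists were chosen with earlier results of these data known. Protein sequences and promoters of Fosl1, Egr1 and Egr3 were not used here.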

Additional observations from a re-analysis of the deposited data

Results flagged for a closer look

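In 2 of 40 sets of 4 arrays (10 genes in 4 groups) a single array lay far from the other 3, by a rule that chance meets in about 1 set of 20. The level of Fosb on LIF_serum array 1 was 1.33, where the nearest of the other LIF_serum arrays had 2.03. The level of Junb on 2i_LIF array 3 was -2.54, where the nearest of the other 2i_LIF arrays had -2.99. The Junb array lay above the lowest LIF_serum array, at -2.83. The cause was not tested.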

How the results depend on the processing

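Of 57 differences of single members, 39 kept their direction and their call under every alternative other than the second Fosl2 probe, and 1231 of 1286 values were unchanged in both respects. Without one array at a time, the members called were 9 to 10 in EpiSC and 5 to 6 in 2i_LIF and 7 to 9 in 2iSB_LIF against LIF_serum, 10 in both ground-state groups against EpiSC, and 0 between 2iSB_LIF and 2i_LIF. With a replicate block the counts were 10, 6 and 7 against LIF_serum, 10 and 10 against EpiSC and 0, as without it. Over the other alternatives the counts were 9 to 10 in EpiSC, 4 to 7 in 2i_LIF and 7 to 9 in 2iSB_LIF against LIF_serum, and 9 to 10 in both ground-state groups against EpiSC. The count that moved by more than 1.5 times was that between 2iSB_LIF and 2i_LIF on slide 2 only, with 1 array a group. Directions that turned round were all of differences that were not called. Fosl1 against the LIF_serum arrays coded LSFF was 0.21 in 2i_LIF and 0.13 in 2iSB_LIF. Between 2iSB_LIF and 2i_LIF, Jun was 0.058 with passage as a covariate, 0.31 on slide 2 only, and -1.01 to 0.11 without one array at a time. In that comparison Egr4 was 1.04 on slide 1 only, 1.04 without 2i_LIF array 4 and 2iSB_LIF array 3, and -1.08 to 0.39 without one array at a time. Fosl1 was -0.44 to 0.29 and Fosl2 -0.076 to 0.63 without one array at a time. The cause was not tested.

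Centring on array medians moved the median of all genes in EpiSC against LIF_serum to 0.61, where the 75th percentile gives 0.07, and the members' count was 10 with either. With normexp 9 members were called in EpiSC against LIF_serum, Egr3 being lost, and 21 of 43 called differences moved by over 1.5 times in fold, as 15 did with slide as a term and 14 in the deposited values. The call of Jun in EpiSC was also lost against the LS arrays alone (adjusted p = 0.070) and the LSFF arrays alone (adjusted p = 0.086). That of Egr2 in 2i_LIF was also lost with passage as a covariate (-1.51, adjusted p = 0.085), on slide 1 alone (-1.79, adjusted p = 0.077) and against either pair of LIF_serum arrays. Signal near background limits the fold of Fosl1, Fosl2, Egr3 and Egr4 in the ground state, and that of Egr2 in 2iSB_LIF. The removal of the 2 arrays of slide 2 from the ground-state groups and the second Fosl2 probe were chosen after seeing the data.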
